A study of Homo sapiens with 12 samples.

Results

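Of the 1971 insulin receptor (IR) peaks in HepG2 cells, 491 carried a promoter label although the start site listed beside them lay more than 1000 bp away. These 491 peaks, called distant-listed promoter peaks here, were chosen from the peak annotation alone: the class was promoter and the absolute listed distance exceeded 1000 bp. A further 1002 promoter-labelled peaks had a listed start within 1000 bp (near-listed promoter peaks), and 478 peaks carried another label. The study was about clusters of IR in insulin signalling and in insulin resistance. Its ChIP gave sites of IR on chromatin, and its RNA time course gave gene expression after insulin.

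HepG2 is an established line from a human hepatocellular carcinoma. The peaks came from 1 chromatin immunoprecipitation (ChIP) library made with an IR antibody, from cells grown in EMEM with serum, then kept with insulin and BSA, washed for 30 min and stimulated with 3 nM insulin; the input library was not used here. The RNA was sequenced in 10 libraries, 2 at each of 0, 5, 10, 30 and 240 min after insulin, from cells held in EMEM before EMEM with BSA and 3 nM insulin. The label of treatment named 5 min for every RNA library, the 0 min ones included, so the times were taken from the titles. All groups were the same unmodified line, and nothing in the labels said whether replicates were separate cultures, so p-values measure the spread between these libraries. Reads counted on genes numbered 18347109 to 45005769 per RNA library. The hepatocyte markers were present, with 12 of 12 at 1 TPM or more at 0 min and a summed level of 48680 to 59710 TPM (a level scaled to transcript length and library size), whereas the sums were 0.958 to 2.07 TPM for 3 endothelial, 4.66 to 6.52 TPM for 4 fibroblast and 0 to 1.18 TPM for 2 erythroid markers. Among 5 leukocyte markers PTPRC and CD3E were at 0, and the sum of 8036 to 10540 TPM came almost wholly from LYZ (lysozyme), at 7978 to 10480 TPM.

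IR is a membrane receptor kinase that binds insulin and signals through its substrates to the kinases AKT and ERK. It has also been found in the nucleus at promoters. A promoter is the stretch of DNA around the base where transcription begins, and many human genes have several such starts, so that one gene can own alternative promoters far apart. An annotation program that keeps a single start for each gene can therefore label a peak as promoter from one transcript and measure its distance to the start of another transcript or of another gene.

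The sequences just upstream of some of these starts are shown because they carry the letters counted later: the start under the peak with the highest score (USP5), the peak with the next score (ST3GAL2), the highest-scoring peak at an inner start only (TCEA2), 2 enzymes of fatty acid synthesis (ACLY and ACACA), and the genes with the largest fall (HBP1) and rise (ATP6V0A2) in RNA at 240 min. Each run is 150 bases of the GRCh37 (hg19) genome, read 5′ to 3′ on the strand of the gene, and base 141 is the first transcribed base. Capitals mark matches, on either strand, to 16 short motifs searched, among them GGGCGG (GC box of SP and KLF factors), CCAAT (NFY), ACTACA (part of the ZNF143 and THAP11 site), TGACG (core of the CREB site) and GTAAACA (FOXO).
USP5, chr12:6961145-6961294, plus strand: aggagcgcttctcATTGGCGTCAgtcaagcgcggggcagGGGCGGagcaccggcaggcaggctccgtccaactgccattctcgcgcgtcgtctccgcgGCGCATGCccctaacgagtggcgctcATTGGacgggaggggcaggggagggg
ST3GAL2, chr16:70472982-70473131, minus strand: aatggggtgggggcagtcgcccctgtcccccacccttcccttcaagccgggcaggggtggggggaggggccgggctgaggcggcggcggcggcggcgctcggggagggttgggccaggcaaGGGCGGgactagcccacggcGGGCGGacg
TCEA2, chr20:62694371-62694520, plus strand: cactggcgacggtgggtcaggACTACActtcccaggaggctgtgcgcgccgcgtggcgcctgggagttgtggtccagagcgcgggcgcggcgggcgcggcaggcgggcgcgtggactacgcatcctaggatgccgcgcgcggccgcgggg
ACLY, chr17:40075266-40075415, minus strand: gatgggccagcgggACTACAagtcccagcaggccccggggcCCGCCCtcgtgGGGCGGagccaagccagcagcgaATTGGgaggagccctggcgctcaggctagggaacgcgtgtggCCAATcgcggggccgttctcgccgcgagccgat
ACACA, chr17:35766893-35767042, minus strand: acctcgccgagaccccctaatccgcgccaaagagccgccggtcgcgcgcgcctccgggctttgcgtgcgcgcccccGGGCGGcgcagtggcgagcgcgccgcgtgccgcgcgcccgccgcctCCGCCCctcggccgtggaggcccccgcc
HBP1, chr7:106809266-106809415, plus strand: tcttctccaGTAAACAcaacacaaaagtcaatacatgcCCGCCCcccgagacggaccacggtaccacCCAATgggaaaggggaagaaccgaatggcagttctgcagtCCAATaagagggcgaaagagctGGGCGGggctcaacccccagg
ATP6V0A2, chr12:124196725-124196874, plus strand: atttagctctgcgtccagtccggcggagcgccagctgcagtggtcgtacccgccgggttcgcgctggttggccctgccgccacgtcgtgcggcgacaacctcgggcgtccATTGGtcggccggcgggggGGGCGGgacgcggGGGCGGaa

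The GC box was found in 6 of these 7 windows, TCEA2 being the exception. ACLY held a CCAAT box and the ZNF143 letters, and HBP1 the FOXO letters beside 2 CCAAT boxes. At TCEA2 the ZNF143 letters were the one motif found. A match is a run of letters, not a bound site.

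The listed distances and the positions of the peaks differed by about 2 orders of magnitude. The listed start was a median of 7998 bp from the peak (quartiles 2827 and 16831 bp, highest 237460 bp). The nearest transcript start of any gene in GENCODE, a catalogue of human genes, was a median of 75 bp from the peak midpoint (quartiles 31.5 and 150.5 bp, highest 810 bp), beside 58 bp for the near-listed promoter peaks and 98 bp for all peaks. A GENCODE start lay inside 428 of the 491 peaks (87.2%, 95% Wilson interval 83.9 to 89.8%), beside 91.9% (90.1 to 93.5%) of the near-listed peaks and 72.8% (70.8 to 74.7%) of all peaks. These intervals cover counting error only, for 1 library without a replicate, and the promoter label, which spans 1000 bp before to 100 bp after a start, placed each peak near some start in the first place.

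**Figure D1:**
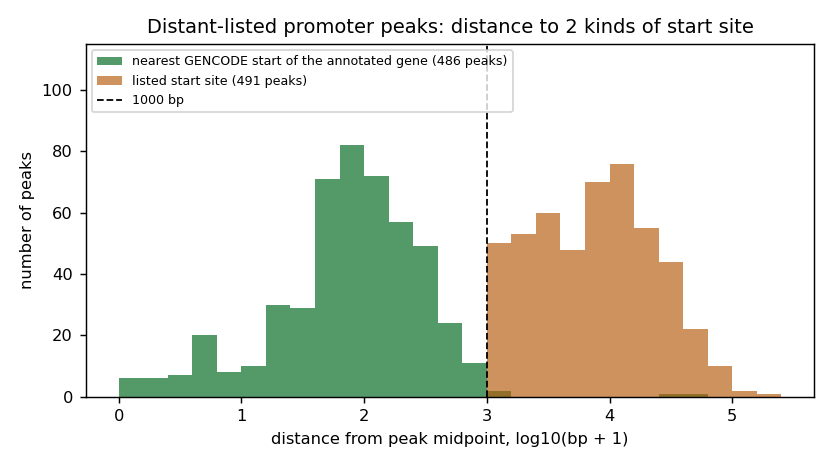
Histogram of the distant-listed promoter peaks by distance from the peak midpoint, log10(bp + 1), to the nearest GENCODE start of the gene in the promoter label (green, 486 peaks whose gene was found) and to the listed start (orange, 491 peaks). The orange bars lie above the 1000 bp line because that limit chose the peaks, and 4 green peaks lie beyond it.

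The mismatch took 2 forms. In 195 peaks (39.7%, 35.5 to 44.1%) the listed gene was the gene of the promoter label, at a median listed distance of 5086 bp. In the other 296 (60.3%, 55.9 to 64.5%) another gene was listed, at a median of 10000 bp, although a GENCODE start lay at a median of 83 bp from the midpoint. Of those 296 other genes, 93 were protein coding, 57 pseudogenes, 36 antisense RNAs, 25 microRNAs, 24 lincRNAs, 20 miscellaneous RNAs and 18 small nuclear RNAs, whereas 474 of the 486 label genes found in GENCODE were protein coding.

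Where both genes were the same, the transcript printed beside the peak gave the listed distance in 19 of the 184 peaks whose transcript was found, with a tolerance of 100 bp. Some GENCODE transcript of that gene, printed or not, gave it in 167 of the 184 (90.8%, 85.7 to 94.2%). The start of the printed transcript itself was within 1000 bp of the midpoint in 132 of them. Where another gene was listed, the printed transcript gave the distance in 214 of 281 peaks.

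The gene in the label had its outermost start within 1000 bp of the midpoint in 366 of 486 peaks (75.3%, 71.3 to 78.9%). In 116 peaks (23.9%, 20.3 to 27.9%) only an inner GENCODE start of that gene was so close, which in that catalogue is the arrangement of an alternative promoter. TCEA2, an elongation factor of RNA polymerase II, was the highest-scoring of these, with an inner start 20 bp from the midpoint and the outermost start 13302 bp away. PRCC, BANP, NMT1 and MXI1, a MYC antagonist, were others, with outermost starts 16814, 1950, 103067 and 18331 bp away. For 4 peaks no GENCODE start of the label gene was within 1000 bp: those labelled CDCA3, HSD17B12, DUSP6 and TEKT4P2, named here after their values were seen. The abundance tables of the RNA libraries, which carry their own gene starts, placed a start of CDCA3 and of TEKT4P2 inside those peaks. They also placed a gene start inside 41 of the 116 peaks at an inner start, with PRCC, BANP and NMT1 at their own. Whether a start is inner thus depends on the catalogue used.

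Peak score, the deposited value of the peak caller, had a median of 89 (quartiles 41 and 252.5, range 13 to 14106) in the distant-listed peaks, beside 105.5 in the near-listed peaks and 79 in all peaks. A score over 1000 was reached by 49 of 491 (9.98%, 7.63 to 12.95%) and by 90 of the 1002 near-listed peaks (8.98%, 7.37 to 10.9%). The intervals overlapped. The highest and the next highest score of all 1971 peaks belonged to distant-listed peaks.

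The 10 highest-scoring peaks began with chr12:6961194-6962173 (score 14106), which held the starts of CDCA3, a cell division protein, and USP5, a deubiquitinase, and was listed 3647 bp from a CDCA3 start. The peak at chr16:70472826-70473722 (13798) held the start of ST3GAL2, a sialyltransferase, and was listed with the pseudogene RPS27P26, 5541 bp away. The peak at chr20:62587169-62589141 (12417), the widest of the set at 1973 bp, held the start of UCKL1, of the uridine kinase family. PANK4, of the pantothenate kinase family, followed at 8946 with HES5 as the listed gene, and TCEA2 at 7593 with an antisense RNA.

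C1orf159 (6785), IFRD2 (6387), NTAN1, an amidase of N-terminal asparagines (5482), STAU1, a binder of double-stranded RNA (5461), and the shared start region of AAMP and PNKD (5327) completed the 10. All but TCEA2 held a gene start of the expression tables. In 5 of the 10 the listed gene was the label gene at another start, and in the other 5 it was another gene.

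Of the 5 peaks with the largest listed distance, the 4 described here sat on starts as well. The MAP2 peak (score 74), listed 237460 bp from another start of this neuronal microtubule gene, had a MAP2 start 3 bp from its midpoint. The CDK5RAP2 peak (73), a centrosomal protein gene, was listed with MEGF9 at 134225 bp and had its own start at 48 bp. The SAMD12 peak (302) was listed with a pseudogene at 140060 bp and had its start at 29 bp, and the PREP peak (21), a peptidase gene, at 79275 bp with a start at 39 bp.

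At the 1000 bp limit, the 3 peaks just inside the set were at 1007 bp (CEP57, score 27), 1012 bp (APOA2, 32) and 1012 bp (labelled KLHL2, listed TMEM192, 25). The 3 just outside were at 988 bp (KDM3A, 34), 985 bp (OTUD4, 352) and 982 bp (INAFM1, 56). The nearest GENCODE start was 55, 789 and 24 bp away inside and 259, 76 and 982 bp away outside. The APOA2 and INAFM1 peaks were thus far from any start beside the medians of 75 and 58 bp in the sets they belong to.

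The peaks were GC-rich. The median GC content of the 300 bp around the midpoint was 70.3% (quartiles 63.0 and 76.5%), beside 67.0% in near-listed peaks and 66.3% in all peaks, and 58.7% in the 35116 RefSeq promoters of the same length. The ratio of observed to expected CpG, high in unmethylated CpG islands, had a median of 0.838, beside 0.848 in near-listed peaks. The peaks were a median of 497 bp wide, beside 476.5 bp.

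GGGCGG was found in 80.5% (76.7 to 83.7%) of the distant-listed windows, in 74.2% (71.4 to 76.8%) of the near-listed, in 39.8% (35.5 to 44.2%) of the peaks without a promoter label and in 45.0% of RefSeq promoters. ACTACA was found in 29.3% (25.5 to 33.5%) against 8.46% of RefSeq promoters, and in 36.5% (33.6 to 39.6%) of the near-listed windows. CCGGAAG, the ETS site, was found in 13.2% (10.5 to 16.5%) of the distant-listed and in 20.1% (17.7 to 22.7%) of the near-listed windows, with intervals that did not overlap, and in 10.3% of RefSeq promoters. GC content differed between the same sets, and its part in these shares was not tested.

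CCAAT (28.9%), TGACG (24.2%) and the E-box CACGTG (5.70%) were within 6 percentage points of their shares in RefSeq promoters (34.6, 24.6 and 7.26%). TATAAA, the TATA box, was found in 1.83% (0.967 to 3.45%), beside 11.5% of RefSeq promoters, and GTAAACA in 2.44% (1.40 to 4.22%), beside 3.42%. AAGATGGC, the YY1 site, was found in 5.50% (3.81 to 7.88%), beside 2.89%. Motifs were searched on both strands, and TGACG is contained in the CREB palindrome, which 7 windows held.

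**Figure D2:**
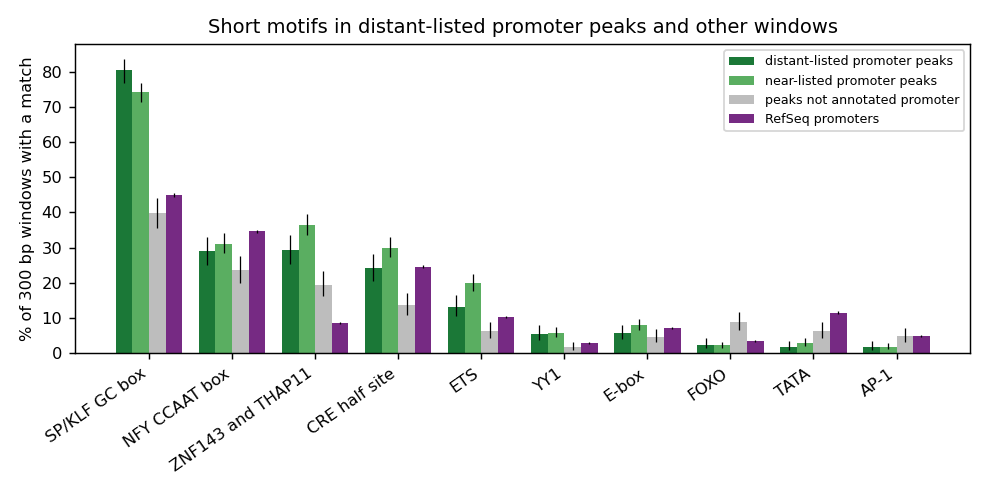
Percentage of 300 bp windows with a match to 10 of the motifs, for distant-listed (491) and near-listed (1002) promoter peaks, peaks without the promoter label (478) and RefSeq promoters (35116), with 95% Wilson intervals. GC boxes were in 80.5% of distant-listed windows, 74.2% of near-listed windows and 45.0% of RefSeq promoters, and TATA boxes in 1.83, 2.99 and 11.5%.

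To name the genes, each peak was overlapped with the gene starts in the StringTie abundance tables of the RNA libraries. A gene start lay inside 309 of the 491 peaks (62.9%, 58.6 to 67.1%), beside 73.1% (70.2 to 75.7%) of the near-listed peaks. Another 117 peaks had a gene start outside but within 1000 bp, and 65 had none, of which 50 held a GENCODE start. TCEA2 and MXI1 were among these 65, since the tables give 1 start for each gene locus.

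The 309 peaks held 333 genes. None of these genes also started in a near-listed peak, but the abundance tables give a single start for each gene locus. The separation was therefore set by the way genes were assigned, and nothing is read from it. In 24 peaks (7.77%, 5.28 to 11.3%) 2 genes started, one on each strand, whereas 17.5% (14.9 to 20.4%) of the near-listed peaks with a gene start held such divergent starts. Examples are CDCA3 and USP5, AAMP and PNKD, and GTPBP2 and MAD2L1BP. The midpoint lay a median of 26 bp upstream of the start (quartiles 108 bp upstream and 54 bp downstream), and upstream for 190 of the 333.

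The gene that started in the peak was often not the one listed. The listed gene had its start in 127 of the 309 peaks (41.1%, 35.8 to 46.7%). Of the 182 others, 58 had a listed gene that the abundance tables contain, and in 45 of these 58 (77.6%, 65.3 to 86.4%) the gene starting in the peak had the higher level at 0 min. The median level was 31.5 TPM for the genes starting in these peaks and 2.23 TPM for the listed genes. Where several genes started in a peak, only the one with the highest level was compared, which favours the starting genes in both figures.

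The genes were expressed at a median of 30.8 TPM at 0 min (quartiles 14.9 and 66.2 TPM), and 317 of 333 (95.2%) were at 1 TPM or more. The median was 24.99 TPM at near-listed peaks and 20.3 TPM over the 13852 genes with enough reads to test. The highest levels belonged to RPN2, an oligosaccharyltransferase subunit (840 and 825 TPM in the 0 min libraries), SPTBN1, a spectrin (510 and 535 TPM), SEPT9, a septin (431 and 433 TPM), PSMA7, a proteasome subunit (435 and 410 TPM), and YWHAQ, a 14-3-3 protein (420 and 415 TPM). Across the 324 genes tested, the Spearman correlation of peak score with the level at 0 min was -0.096, a description over genes that share the same libraries.

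Of the 333 genes, 324 had enough reads to test against 0 min in an edgeR model fitted to all 13852 genes, with a Benjamini-Hochberg adjusted p under 0.05 as the call. None of the 324 passed at 5 min, when 0% of all genes did. At 10 min the count was 0, beside 0.137% of all genes (19 genes), and at 30 min it was 0, beside 0.332% (46 genes). An unadjusted p under 0.05 was reached at 5 min by 72 of the 324 genes (22.2%, beside 14.3% of all genes), at 10 min by 14 (4.32%, beside 5.13%), and at 30 min by 26 (8.03%, beside 8.12%). DESeq2 called 0, 0 and 1 of these genes at the 3 times, beside 0.00973, 0.1265 and 0.258% of all genes.

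At 240 min 173 of the 324 genes were called (53.4%), beside 41.0% of all genes tested and 41.7% (348 of 834) of the genes at near-listed peaks. Of the 173, 105 fell (32.4%, beside 20.4% of all genes) and 68 rose (21.0%, beside 20.6% of all genes). The median log2 fold change was -0.05, beside -0.04 at near-listed peaks and 0.00 over all genes, and 6 of the 173 changed by 1 or more on the log2 scale. On limma with log2(TPM + 1) the called genes were 55 higher and 50 lower, so the greater number of falls was not seen by that method, and the share called was 31.8% (of 330 genes), beside 24.0% of all genes. Scaled to the ERCC spike-in RNAs, edgeR called 25 genes (7.72%), 3 higher and 22 lower, beside 7.65% of all genes, so the called share was then that of all genes. Of the called genes, 39.3% were higher with edgeR, beside 50.2% of all called genes. With limma it was 52.4%, beside 63.0%, so the higher share was below that of all called genes by both methods.

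Level and gene span moved with the share called. Over all genes it ran from 18.3% in the lowest quartile of mean CPM (counts scaled to library size) to 53.5% in the highest, and 124 of the 324 genes were in the highest quartile and 24 in the lowest. Within quartiles of CPM the distant-listed genes had 25, 44.3, 59.4 and 58.9% called, beside 18.3, 39.9, 52.2 and 53.5% of all genes. The distant-listed share was the higher in each quartile, with an interval that contained the share of all genes. These intervals cover counting error only, over genes that share the same libraries, so they do not decide whether the shares differ. The genes were also longer, with a median span of 40480 bp beside 25840 bp over all genes, and 122 were in the longest quartile, where 59.8% (51.0 to 68.1%) were called beside 45.3% of all genes. In quartiles 1, 2 and 3 of span 35.1, 57.0 (46.0 to 67.3) and 48.8% were called, beside 32.3, 41.0 and 45.3% of all genes. The part of level and span in the share was not tested further.

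**Figure D3:**
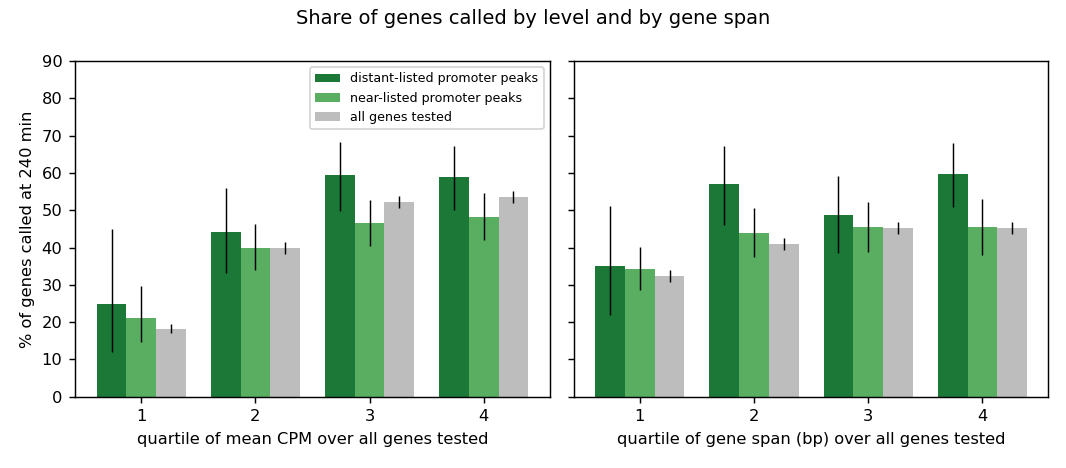
Percentage of genes called at 240 min by quartile of mean CPM (left) and of gene span (right), with 95% Wilson intervals, for genes at distant-listed peaks, genes at near-listed peaks and all genes tested. In the highest CPM quartile the shares were 58.9, 48.3 and 53.5%, and in the longest span quartile 59.8, 45.5 and 45.3%.

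The share called was not the same in peaks listed with another gene and with their own, a difference given here with no test. Genes in the peaks listed with another gene were called in 114 of 194 (58.8%, 72 lower and 42 higher). Those in peaks listed with their own gene were called in 59 of 130 (45.4%, 33 lower and 26 higher). Genes at an inner start only were called in 17 of 43 (39.5%). Over all genes tested 41.0% were called, 20.4% lower and 20.6% higher. The level and span of these groups of genes were not compared. The median peak score was 113 for the genes that fell, 103.5 for those that rose and 109 for the rest.

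HBP1, a transcriptional repressor that restrains the cell cycle, fell most. Its level was 53.8 and 60.1 CPM at 0 min, 59.97 and 61.2 CPM at 5 min, 59.6 and 55.3 CPM at 10 min, 59.4 and 60.6 CPM at 30 min and 14.8 and 15.8 CPM at 240 min. Both 240 min libraries were far below all others, with a log2 fold change of -1.91 (SE 0.07, adjusted p = 7.26e-13, edgeR). Its peak (score 944) was listed 24386 bp away, with another gene. PIM1, a survival kinase, went from 45.7 and 41.8 CPM at 0 min, through 51.9 and 50.3 at 30 min, to 16.4 and 15.3 CPM at 240 min (log2 fold change -1.46, SE 0.08, adjusted p = 6.02e-11, edgeR). The libraries at 240 min did not overlap any earlier one. Its peak scored 45 and was listed 2608 bp from another PIM1 start.

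RFX3, a transcription factor of cilium genes, went from 19.4 and 22.2 CPM to 9.40 and 10.5 CPM (log2 fold change -1.09). ZFYVE1, which binds phosphatidylinositol 3-phosphate, went from 14.3 and 16.4 to 7.20 and 8.26 CPM (-1.02). N4BP2L1 went from 14.7 and 14.6 to 6.996 and 7.68 CPM (-1.003). In each case the replicates at 240 min were below both at 0 min, about a factor of 2 on the linear scale.

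GPT2, the mitochondrial alanine aminotransferase that links alanine to gluconeogenesis, fell from 329 and 326 CPM to 186 and 184 CPM (log2 fold change -0.83, SE 0.05, adjusted p = 1.24e-09, edgeR). It was 315.5 and 291.5 CPM at 5 min, 296 and 273 CPM at 10 min and 290 and 277 CPM at 30 min. These libraries lay between those of 0 min and of 240 min, and the 30 min ones lay inside the range of the 10 min ones. FMNL2, a formin that extends actin filaments, fell by 0.83 on the log2 scale, RABGAP1, a Rab GTPase-activating protein, by 0.69, BANP, a nuclear DNA-binding protein, by 0.68, and FBXO46, an F-box protein, by 0.65.

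ATP6V0A2, a membrane subunit of the proton pump of endosomes and the Golgi, rose most. Its 2 libraries had 24.96 and 25.8 CPM at 0 min, 26.2 and 28.1 CPM at 5 min, 24.9 and 28.1 CPM at 10 min, 26.02 and 25.4 CPM at 30 min and 50.8 and 48.6 CPM at 240 min. The rise was seen in both late libraries and in no earlier one (log2 fold change 0.97, SE 0.07, adjusted p = 3.96e-09, edgeR). Its peak was among the weakest, with a score of 21 and a midpoint 3 bp from the start. RCAN1, an inhibitor of the phosphatase calcineurin, rose from 39.1 and 39.5 to 65.8 and 64.6 CPM (0.73, SE 0.07, adjusted p = 6.73e-08, edgeR), from a peak listed with CLIC6 at 54139 bp.

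Among the other rises, PPRC1, a coactivator of mitochondrial biogenesis, had 52.3 and 52.1 CPM at 0 min, 45.7 and 45.6 CPM at 30 min and 79.2 and 79.5 CPM at 240 min, so that it was lowest just before it was highest (log2 fold change 0.60, SE 0.05, adjusted p = 4.45e-08, edgeR). WDR43, a factor of ribosome assembly, rose from 185 and 178 to 285 and 270 CPM (0.62). GINS3, of the replicative helicase, rose from 15.6 and 14.6 to 23.1 and 21.5 CPM (0.58). These 3 rises were not called under ERCC scaling (edgeR adjusted p = 0.0900, 0.0790 and 0.158).

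TADA2A, of histone acetyltransferase complexes, rose by 0.60 on the log2 scale, VRK1, a nuclear kinase, by 0.54, NKD1, an inhibitor of Wnt signalling, by 0.56 and the long noncoding RNA LINC00673 by 0.55. None of these 4 was called under ERCC scaling (edgeR adjusted p from 0.151 to 0.188), whereas ATP6V0A2 and RCAN1 were (0.000624 and 0.0236). Of the 173 called genes, 168 (67 higher, 101 lower) averaged 5 CPM or more with both late libraries on 1 side of both at 0 min.

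**Figure D4:**
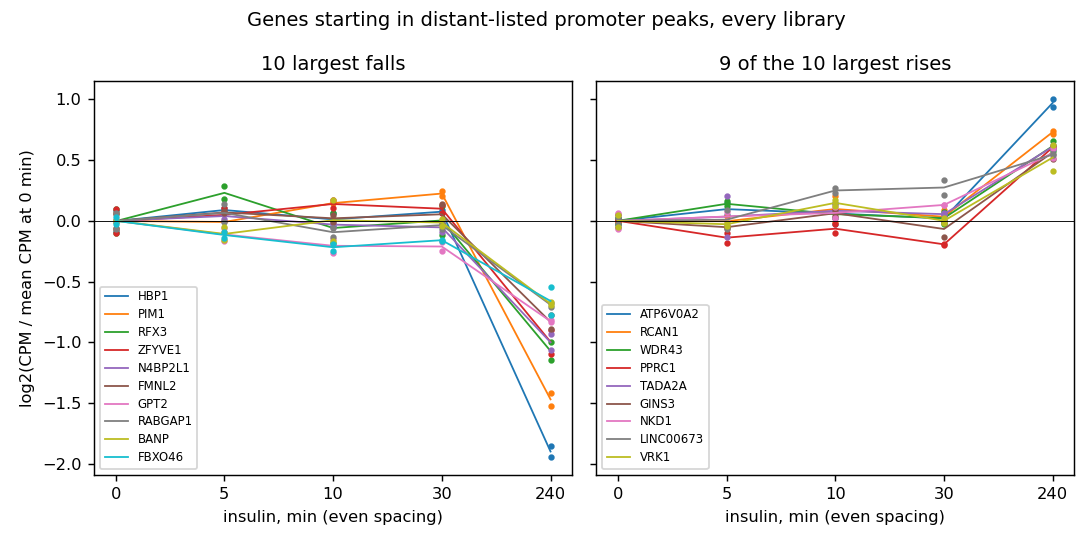
Level of the genes with the 10 largest falls (left) and of 9 of the 10 with the largest rises (right) at 240 min, as log2 of CPM over the mean CPM at 0 min, against minutes of insulin at even spacing; points are the 2 libraries of each time and lines their means. HBP1 ends at -1.91 and ATP6V0A2 at 0.97, and the means at 5, 10 and 30 min of each gene lie closer to 0 than its mean at 240 min.

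The first 3 enzymes that turn citrate into fatty acid all started in distant-listed peaks. ACLY makes acetyl-CoA, ACACA makes malonyl-CoA and FASN builds palmitate from both. Of the 45 genes of lipid and cholesterol synthesis in the count table, these were the only 3 whose single start in the abundance tables lay in a distant-listed peak, and DGAT1 and FDPS were the 2 in near-listed peaks. At 240 min, 21 of the 42 list genes tested rose and 5 fell.

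The FASN peak (score 92, rank 894 of all) was listed 7905 bp from CCDC57, so the listed gene would not name FASN. The ACLY peak at chr17:40075184-40075547 (398) was listed 11430 bp from another ACLY start, and the ACACA peak at chr17:35766794-35767335 (33) 1617 bp from an antisense RNA gene. The ACACA peak also held the start of TADA2A, on the opposite strand, one of the 10 largest rises. All 3 genes are on chromosome 17, which held 44 of the 491 peaks.

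FASN was at 1176 and 988 CPM at 0 min, 961 and 824 CPM at 5 min, 1132 and 1091 CPM at 10 min, 1015 and 856 CPM at 30 min and 1251 and 1251 CPM at 240 min. The late libraries were above all others, though 0 min replicate 1 came close (log2 fold change 0.21, SE 0.08, adjusted p = 0.0476, edgeR). Without 0 min replicate 2 the change was 0.09 (adjusted p = 0.506), DESeq2 gave an adjusted p of 0.241, and over the alternatives that kept all libraries the adjusted p ran from 9.55e-05 to 0.83, so the call was not stable. ACLY was at 684 and 593 CPM at 0 min and 687 and 728 CPM at 240 min (0.15, SE 0.06, adjusted p = 0.0573, edgeR). ACACA was at 274.5 and 253 CPM and 270.0 and 275 CPM (0.05, SE 0.05, adjusted p = 0.478, edgeR), and neither passed the threshold.

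**Figure D5:**
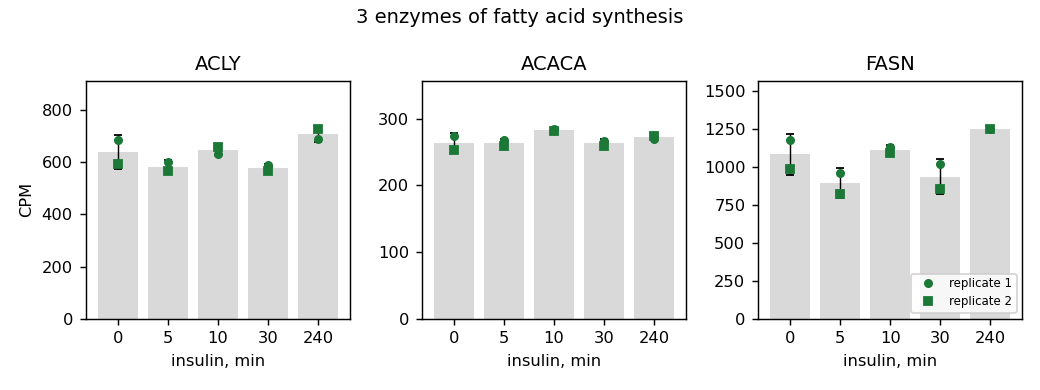
Levels (CPM) of ACLY, ACACA and FASN at each time after insulin; bars are the means of 2 libraries, whiskers the SD and points the libraries. FASN was at 1251 CPM in both 240 min libraries against 1176 and 988 CPM at 0 min, and ACACA stayed between 253 and 285 CPM.

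By the single start of the abundance tables, 324 of the 13852 genes tested started in these peaks. Among the other gene lists it was 20 of 445 zinc finger genes tested and 5 of 126 of the transcription machinery. It was 3 of 46 proteasome genes, 3 of 84 chaperone genes and 2 of 101 cell cycle genes. It was 1 each of 76 mitochondrial ribosomal protein, 97 translation and 197 RNA splicing genes. The 20 zinc finger (ZNF) genes, most of them coding for DNA-binding repressors, were the largest group: 7 rose (ZNF17, ZNF76, ZNF331, ZNF354A, ZNF354B, ZNF605 and ZNF773), 2 fell (ZNF221 and ZNF384) and 11 did not pass the test. ZNF773 went from 4.69 and 5.23 to 6.36 and 7.52 CPM and ZNF17 from 6.77 and 6.89 to 8.995 and 9.26 CPM. Over all genes 169 of 445 ZNF genes tested rose and 50 fell, and 68 ZNF genes started in near-listed peaks.

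Of the transcription machinery, 5 genes started in distant-listed peaks. Over that whole list 33 of 126 genes tested rose and 27 fell, and over all genes 20.6% rose and 20.4% fell. POLR2A, the largest subunit of RNA polymerase II, rose from 290 and 299 to 343 and 315 CPM, POLR1A, that of RNA polymerase I, rose from 144 and 148 to 169 and 175 CPM, GTF2I fell from 101 and 105 to 94.4 and 90.9 CPM, and GTF2IRD1 and POLR3E were not called. PSMD3 fell by 0.16 on the log2 scale among 3 proteasome genes, with PSMA7 and PSMD2 not called (whole list: 13 of 46 rose and 4 fell). DNAJC11 rose by 0.15 among 3 chaperone genes, with DNAJA3 and DNAJC17 not called (whole list: 17 of 84 rose and 17 fell). GINS3, of the 2 cell cycle genes, rose (whole list: 41 of 101 rose and 18 fell), and CDC34, MRPL24, EIF4ENIF1 and RBM27 were not called. No call of these lists but that of POLR1A, ZNF17 and GINS3 was kept in all replicate leave-outs and tools other than ERCC scaling.

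By the same single start, no gene of glucose metabolism, insulin signalling, the immediate early response, the ribosomal proteins, oxidative phosphorylation, mitochondrial import, the histones or the small RNAs started in a distant-listed peak. These lists had from 31 to 130 genes tested, and 324 of all 13852 genes tested started there. With lists of this size, nothing is read from the absence. The near-listed peaks held the starts of 872 genes, 834 of them among the 13852 tested. These included 9 ribosomal protein genes of 87 in the table, 9 mitochondrial ribosomal protein genes and 6 of oxidative phosphorylation. TIMM22 was among the 3 of mitochondrial import there. INSR and SREBF1 were not among the 333 genes, but both had a GENCODE start in a distant-listed peak.

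Counting instead the peaks whose label gene had any GENCODE start inside added 18 genes of the lists to those above, and those described next were chosen from the 18 after their values were seen. INSR, which encodes IR itself, started 3 bp from the midpoint of the peak at chr19:7294157-7294688 (score 62), listed with a microRNA gene at 14841 bp. INSR RNA was at 201 and 219 CPM at 0 min, 218 and 227 CPM at 5 min, 212 and 206 CPM at 10 min, 217 and 205 CPM at 30 min and 144 and 132 CPM at 240 min. Both late libraries were below all others (log2 fold change -0.61, SE 0.06, adjusted p = 8.32e-08, edgeR), and the call was kept under ERCC scaling (adjusted p = 0.00484) and in the 12 other alternatives. MAPK3, the kinase ERK1, and GSK3B, the kinase that inhibits glycogen synthase, also had starts in such peaks (36 and 101 bp from the midpoint) and were not called (log2 fold change -0.07, adjusted p = 0.439, and -0.11, adjusted p = 0.0813, edgeR).

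Of the lipid list, SREBF1 and AGPAT1 were among the genes added. SREBF1, the transcription factor that switches on fatty acid synthesis, had an inner start 57 bp from the midpoint of the peak at chr17:17726808-17727171 (score 54) and its outermost start 13327 bp away. It went from 51.1 and 44.7 CPM at 0 min to 61.1 and 61.5 CPM at 240 min (0.37, SE 0.08, adjusted p = 0.00146, edgeR), a rise called in 10 of the 12 other alternatives and not under ERCC scaling (adjusted p = 0.489). It was lost with limma at a pseudocount of 0.1 (adjusted p = 0.0604) and without 0 min replicate 2 (log2 fold change 0.26). AGPAT1, an enzyme of phospholipid and triglyceride synthesis, fell from 122 and 124 to 98.5 and 94.7 CPM (-0.35, adjusted p = 3.42e-05, edgeR), with no call under ERCC scaling (adjusted p = 0.108).

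CDC25A, the phosphatase that activates cyclin-dependent kinases, had the largest change of the 18. It was at 27.3 and 24.6 CPM at 0 min, between 22.4 and 26.4 CPM at 5, 10 and 30 min, and at 49.8 and 49.1 CPM at 240 min (0.94, SE 0.07, adjusted p = 3.58e-09, edgeR), a rise kept under ERCC scaling (adjusted p = 0.00135) and in the 12 other alternatives.

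The genes under the 10 highest peaks numbered 11, and 7 of them were called at 240 min, 5 lower and 2 higher (all genes: 41.0% called, 20.4% lower and 20.6% higher). With 11 genes nothing is read from that count. STAU1 fell from 536 and 557 to 436 and 408 CPM (log2 fold change -0.37, SE 0.05, adjusted p = 7.38e-06, edgeR), and CDCA3 from 15.3 and 13.3 to 9.96 and 10.99 CPM (-0.44). USP5, across the same peak from CDCA3, was at 81.9 and 80.9 and at 77.2 and 79.9 CPM (-0.05, adjusted p = 0.442, edgeR). PNKD rose from 50.1 and 49.5 to 60.9 and 61.5 CPM (0.30), while AAMP, which starts in the same peak on the other strand, fell from 106 and 100.3 to 91.3 and 89.3 CPM (-0.19), so divergent genes of a single peak moved in opposite directions.

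The peaks with GTAAACA numbered 12 and held the starts of 6 genes tested. Of these, HBP1, CRTC2, NEK7 and PHLPP1 fell, TLK2 rose and TFAP4 was not called (all genes: 41.0% called, 20.4% lower and 20.6% higher). Nothing is read from a count of 6 genes. CRTC2, a coactivator of CREB, went from 17.9 and 17.7 to 12.3 and 12.4 CPM (-0.53), and PHLPP1, a phosphatase of AKT, from 105 and 112 to 89.9 and 85.0 CPM (-0.31). The choice of these names followed a look at their values. For the common motifs the share called was near that of the whole set: 53.1% of 254 genes with GGGCGG, 53.8% of 117 with ACTACA and 49.1% of 57 with CCGGAAG.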

How the data were processed

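HepG2 RNA-seq libraries (10) and 1 IR ChIP-seq library were used, all aligned to hg19. The authors deposited raw read counts per gene (STAR, featureCounts), gene abundances in TPM with gene positions (StringTie), and peaks (BWA, MACS2) with a deposited score and HOMER's annotation and distance. The protocols of RNA and DNA extraction appear exchanged in the labels.

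Members were peaks with the promoter label and an absolute listed distance above 1000 bp. Members, gene lists, motifs and named genes (the 10 highest peaks, the 5 farthest, the 3 on each side of the limit, 17 gene lists, the 10 largest rises and falls of at least 5 mean CPM with no overlap, the 5 highest levels) were chosen with earlier results of these data known. Starts came from GENCODE (lifted to GRCh37) and from the abundance tables. Motifs were searched in 300 bp, on GRCh37, and in RefSeq promoters (GRCh38). Counts were fitted with edgeR 4.0.16 (TMM, filterByExpr, quasi-likelihood, 1 model of 10 libraries, no block), with Benjamini-Hochberg adjustment over 13852 of 26364 genes. The 92 ERCC rows (1.59 to 2.36% of counts) were left out. Alternatives used DESeq2 1.42.0 and limma 3.58.1 (TPM, log2 scale, pseudocount 1 or 0.1). The script was tested on simulated data. Some items are not reported here.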

Additional observations from a re-analysis of the deposited data

How the results depend on the processing

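At 240 min the called genes were 173 of 324 under RLE (all genes: 41.0%), 169 of 333 without the filter (27.9%), 172 of 322 with at least 10 counts in every library (43.9%), 137 of 333 with DESeq2 (21.5%) and 120 of 318 with limma on log2(TPM + 1) for genes of mean TPM 1 or more (32.5%). They were 105 of 330 for limma with pseudocount 1 (24.0%), 88 of 330 with pseudocount 0.1 (21.2%), and 25 of 324 (3 higher, 22 lower, 7.72%, beside 7.65%) when scaled to the ERCC spike-ins, which moved the median of all genes to -0.12 at 240 min, -0.33 at 10 min and -0.13 at 30 min (log2). Leaving out 1 library gave 111 to 141 calls at 240 min, with 111 without 0 min replicate 2 and 112 without 240 min replicate 1, and from 0 to 1 at 5 min, 0 to 0 at 10 min and 0 to 2 at 30 min. A comparison with 1 library in an arm assumed that it varies like the other groups.

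Without the filter 3, 3 and 5 genes were called at 5, 10 and 30 min. DESeq2 called 1 at 30 min, and peaks extended by 1000 bp gave 1 at 10 min and 1 at 30 min. With peaks above the median score only, 184 peaks held a gene start and 105 of 194 genes (54.1%) were called at 240 min. With extension by 500 bp 407 peaks, and by 1000 bp 426 peaks, held a start, and 227 of 432 and 238 of 455 genes were called. A distance limit of 500 bp gave 630 peaks and 5000 bp gave 307. Taking the gene of the promoter label gave 244 of 448 genes (54.5%) and the listed gene 121 of 254 (47.6%), both chosen after seeing the data, as were the quartiles of level and span. For all these choices of peaks and genes the share of all genes called at 240 min was 41.0%.

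The replicate numbers did not pair the libraries (correlations of -0.115 to 0.133 over 10 pairs of times). With a replicate block 176 of 324 genes (54.3%) were called at 240 min, 172 of them also without it, beside 42.2% of all genes. Of 62 named genes none changed direction with a call. Under ERCC scaling 25 lost the call, among them 8 of the 10 largest rises, and all 10 largest falls kept it. Motif shares moved with the window, GGGCGG being in 71.3% of 200 bp windows and 89.0% of whole peaks. Peaks of 1 library without a replicate carry no error beyond counting.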
